A study of Mus musculus with 90 samples.

Results

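The genes described here are 59 mouse genes of the spliceosome and its regulators, taken by symbol from the count table of a single-embryo RNA-seq study of the transcription factor gene Plag1. They are 59 of 24422 genes in the table, and all 59 were among the 16511 genes with at least 1 CPM (counts scaled to the library total) in at least 5 libraries. The list was set by gene name, and it was chosen with earlier results of these data known. Messenger RNA is made from a longer precursor by the spliceosome, in which small nuclear ribonucleoproteins (snRNPs) find the splice sites, assemble into an active complex and join the exons. The U1 snRNP binds the 5′ splice site and the U2 snRNP the branch point, the U4/U6 and U5 snRNPs then join as a tri-snRNP, and the Prp19 complex takes part in activation. SR proteins and hnRNP proteins bind the precursor itself and steer which splice sites are used. An oocyte at metaphase II (MII) is transcriptionally silent and lives on stored transcripts, which the mouse embryo clears and replaces around the 2-cell stage.

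All mice were of the CD-1 strain, and the donors were sexually mature females that had been superovulated. WT oocytes and embryos came from wild-type females, and those labelled matPlag1KO came from females lacking Plag1 in every cell. Oocytes were not mated, and all embryos were sired by WT studs, so matPlag1KO embryos were heterozygous and lacked the maternal allele. Oocytes were picked at 21 to 23 h after hCG, 2-cell (2c) embryos at 45 to 47 h and 8-cell (8c) embryos at 71 to 73 h by the clock of the labels, after culture. After removal of 12 of 90 libraries with a low median CPM, 16 WT and 14 matPlag1KO MII oocytes, 11 and 11 2c embryos and 15 and 11 8c embryos remained. The labels name no donor female, so p-values measure the spread between single embryos, some of which may share a mother.

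The kept libraries held 92475 to 2502421 gene counts, and the 59 splicing genes together took 575 to 16413 counts per library. The 2c libraries were the shallowest, with median totals of 148473 counts in WT and 163626 in matPlag1KO. Plag1 itself had counts in 16 of 16 WT oocytes and 3 of 14 matPlag1KO oocytes. At 2c the order was the opposite: Plag1 was counted in 9 of 11 embryos labelled matPlag1KO but in just 1 of the 11 from WT females. At 8c it was counted in 5 of 15 WT embryos and in 4 of the 11 labelled matPlag1KO. The 10 oocyte markers, all tested, summed to a median of 9759 CPM in WT oocytes, 3574 CPM at 2c and 136 CPM at 8c. Of 10 cumulus and granulosa cell markers, 2 had no count in any kept library, and the summed median of the list was 20.2 CPM in WT and 18.6 CPM in matPlag1KO oocytes.

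Levels are CPM on TMM-scaled library sizes. Each transcript gives 1 tag at its 5′ end whatever its length, so levels were compared between genes without a length correction. Other differences between genes in capture or mapping were not tested. The splicing genes summed to a median of 7987 CPM (lowest 5450.0, highest 10205) in WT oocytes, 8045 CPM (6136 to 9795) in WT 2c embryos and 13296 CPM (10053 to 16795) in WT 8c embryos. In the matPlag1KO groups the medians were 8087 CPM (5696 to 9148), 5438 CPM (4279 to 7958) and 12742 CPM (8837 to 14609). The medians of the genotypes lay furthest apart at 2c, with overlapping ranges. Snrpg, a protein of the Sm ring that clasps the snRNAs, was the most abundant member at every WT stage, at 971 ± 329 CPM (mean ± SD, n = 16) in oocytes, 993 ± 298 CPM (n = 11) at 2c and 1320.2 ± 347 CPM (n = 15) at 8c. Ptbp1, an RNA-binding repressor of exon inclusion, came second at every WT stage (832 ± 554, 662 ± 349 and 948 ± 317 CPM). The third place was held by Snrpd1, another Sm protein, in oocytes (578 ± 212 CPM), by Tra2b, an SR-like activator of exon inclusion, at 2c (552 ± 201 CPM), and by Hnrnpa1, an hnRNP that antagonises SR proteins, at 8c (826 ± 187 CPM). Neighbours in this order differed by less than the larger of their SDs, except Snrpg and Ptbp1 at 8c.

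**Figure D1:**
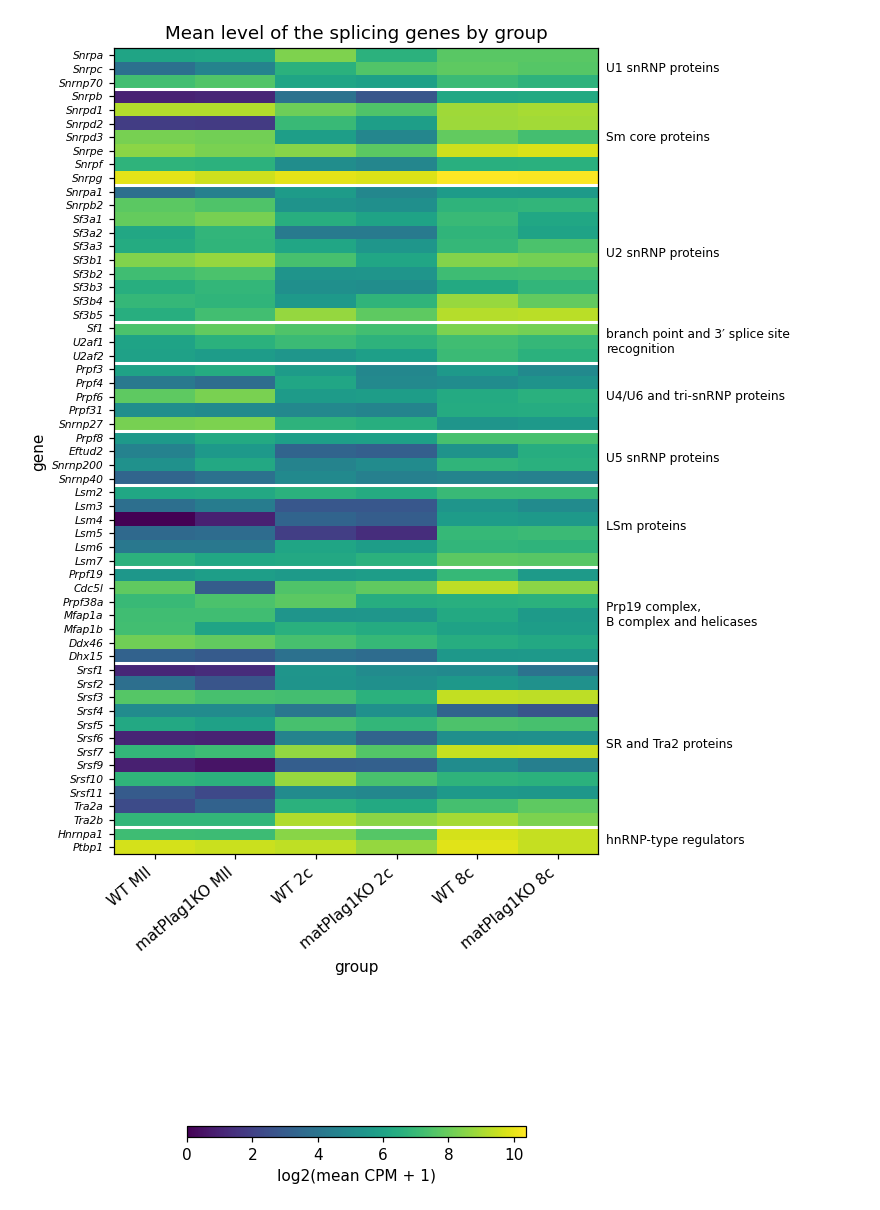
Mean level of each of the 59 splicing genes (rows, by role) in the 6 groups (columns), as log2(mean CPM + 1) on a colour scale from low (dark) to high (yellow). Snrpg and Ptbp1 stay bright across all groups, and Cdc5l is dark in matPlag1KO oocytes alone, at a mean of 7.29 CPM against 228 CPM in WT oocytes.

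The first comparison asked which splicing genes differed in oocytes grown without Plag1. Both members that did were lower: 0 of 59 were called higher and 2 lower at an adjusted p under 0.05 (edgeR quasi-likelihood test, Benjamini-Hochberg over all 16511 genes), where 0.309% of all genes were called higher and 0.472% lower. Both belong to the 7 genes of the Prp19 complex, B complex and helicase group. Cdc5l encodes the Myb-related core protein of the Prp19 complex, and Mfap1b encodes a copy of MFAP1, a component of the spliceosomal B complex.

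Cdc5l (chr17:45528839-45570656, minus strand, mm9) had a lowest value of 5.81, a median of 87.4 and a highest of 923 CPM in the 16 WT oocytes. In the 14 matPlag1KO oocytes it had 0, 6.32 and 14.7 CPM. Of the WT oocytes, 14 lay above the highest matPlag1KO oocyte, and 2 WT oocytes lay within the matPlag1KO range. The log2 fold change was -4.92 ± 0.453 (SE), with an adjusted p of 9.91e-15 from edgeR. WT oocytes spread widely between the 2 pools in which the libraries were made (libA and libB): their median was 57.7 CPM in libA and 323 CPM in libB, against 6.68 and 5.97 CPM in matPlag1KO. Within libA alone the log2 fold change was -3.20 (edgeR adjusted p = 1.32e-05), and within libB it was -5.71 (edgeR adjusted p = 5.19e-11). In embryos Cdc5l was not called: the medians were 153 CPM (104 to 316) in WT and 199.8 CPM (81.2 to 608) in matPlag1KO at 2c, and 581 CPM (394 to 1129.9) and 333 CPM (130.0 to 779.9) at 8c, with log2 fold changes of 0.30 ± 0.431 (edgeR adjusted p = 0.742) and -0.75 ± 0.395 (edgeR adjusted p = 0.374).

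Mfap1b (chr2:121287402-121299759, minus strand) had 57.3, 154 and 239 CPM as lowest, median and highest in WT oocytes and 19.5, 66.0 and 127 CPM in matPlag1KO oocytes. All 14 matPlag1KO oocytes lay below the WT median, while 11 of 16 WT oocytes lay above the highest matPlag1KO oocyte. The log2 fold change was -1.20 ± 0.254 (edgeR adjusted p = 0.00282). It was -0.81 with spike-in scaling (edgeR adjusted p = 0.209) and -1.01 within libA (edgeR adjusted p = 0.227), so the call ended in both. Its neighbour Mfap1a (chr2:121318417-121332392, minus strand) had 62.2, 132 and 298 CPM in WT oocytes and 42.3, 139 and 270.1 CPM in matPlag1KO oocytes, with a log2 fold change of 0.02 ± 0.256. The coding sequences of the pair are identical over all 1320 bases in the annotation of the same build. Before the start codon, 9 of 124 aligned bases differ, so 5′ tags can be told apart only where they cover a differing base, and the split of reads between the copies is uncertain. The sum of both copies had a median of 276 CPM (119.6 to 537) in WT oocytes and 206 CPM (61.8 to 355) in matPlag1KO oocytes.

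**Figure D2:**
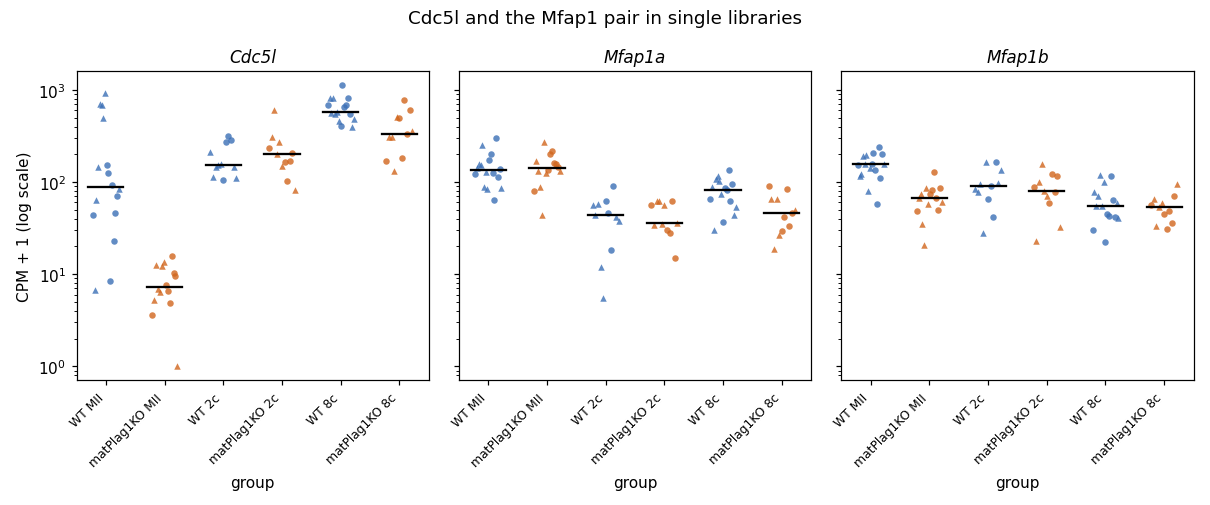
CPM + 1 (log axis) of Cdc5l, Mfap1a and Mfap1b in each kept library of the 6 groups. Circles are libA, triangles libB, blue is WT, orange is matPlag1KO, and bars are medians. Cdc5l of matPlag1KO oocytes lies at 0 to 14.7 CPM, and Mfap1b but not Mfap1a is shifted down in the same oocytes.

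The other 57 members were not called in oocytes, and their log2 fold changes ran from -0.91 to 1.01, apart from Lsm4, which had no count in WT oocytes and 7 counts over 2 matPlag1KO oocytes. The median of all 59 was 0.06, against 0.00 over all genes. In these oocytes the summed oocyte markers had medians of 9759 CPM (6772 to 37401) in WT and 28394 CPM (5897 to 47427) in matPlag1KO. The medians differed but the ranges overlapped, and all 10 single markers had a higher median in matPlag1KO. The part of these markers in the splicing gene values was not tested. With the well as a block and the pool as a term, 10 of 58 members tested were called in oocytes, 6 higher and 4 lower, both Cdc5l and Mfap1b among them. In that fit 4.92% of all genes were called higher and 1.18% lower. The 6 higher were Lsm5, Sf3a2, Prpf8, Sf3b5, Snrnp200 and U2af1, and the other lower members were Snrpe and Snrpg, with log2 fold changes from 0.65 to 2.53 and of -0.39 and -0.37. These 8 names were taken from that fit after its values were seen. In the fit of all 6 groups, 1 of 97 genes tested within 5 Mb of Cdc5l (1.03%) was called in oocytes (Gm17830). Around Mfap1b it was 2 of 116 (1.72%), Eif3j2 and Eif3j1. Of all genes, 0.309% were called higher and 0.472% lower in that fit.

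At 2c the question was which splicing genes differed while the embryonic genome takes over. Of 59 members, 0 were called higher and 7 lower, where 2.30% of all genes were called higher and 2.62% lower. The 7 came from 6 roles: Snrpa of the U1 snRNP, the Sm protein Snrpd2, Sf3b1 of the U2 snRNP, the B complex protein Prpf38a, the SR proteins Srsf7 and Srsf10, and Hnrnpa1. Of all 59, 44 (74.6%) had a negative log2 fold change, against 42.2% of all genes, and the median was -0.32 against 0.12 over all genes. An unadjusted p under 0.05 was found for 20 of the 59 members, against 3380 of 16511 genes (20.5%).

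Snrpa (chr7:27972025-27981290, minus strand), a U1 snRNP protein that binds the U1 snRNA, showed the lowest log2 fold change. It had 86.2, 314 and 547 CPM as lowest, median and highest in the 11 WT 2c embryos and 30.1, 81.6 and 236 CPM in the 11 matPlag1KO 2c embryos. All 11 matPlag1KO embryos lay below the WT median, 6 of them below every WT embryo. The log2 fold change was -1.72 ± 0.318 (edgeR adjusted p = 4.72e-04). In oocytes it was 0.06 ± 0.263 and at 8c -0.03 ± 0.281. The 2c difference was lower than that in oocytes by an interaction term of -1.78 ± 0.410 (edgeR adjusted p = 0.00572) and lower than that at 8c by -1.69 ± 0.419 (edgeR adjusted p = 0.0164).

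Srsf10 (chr4:135411986-135425814, plus strand) encodes an SR protein that acts as a repressor when dephosphorylated. Its lowest, median and highest levels were 207, 453 and 850.0 CPM in WT and 55.2, 122 and 428 CPM in matPlag1KO 2c embryos. Of the matPlag1KO embryos, 8 of 11 lay below every WT embryo. The log2 fold change was -1.42 ± 0.296 (edgeR adjusted p = 0.00188). Srsf7 (chr17:80599420-80606645, minus strand), an SR protein that also takes part in mRNA export, had 86.6, 399.7 and 859.9 CPM in WT and 106, 191 and 349 CPM in matPlag1KO. No matPlag1KO embryo lay below the lowest WT embryo, yet all 11 lay below the WT median, and the log2 fold change was -1.10 ± 0.294 (edgeR adjusted p = 0.0176). The summed level of the 12 SR and Tra2 genes had a median of 2062 CPM (993 to 2848) in WT and 1118 CPM (756 to 1854) in matPlag1KO 2c embryos. Of these 12, 10 (83.3%) had a negative log2 fold change, against 42.2% of all genes, and 2 were called.

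Sf3b1 (chr1:55042013-55084322, minus strand), the large SF3b subunit that holds the branch point, had 81.9, 156 and 264 CPM in WT and 17.7, 58.5 and 134 CPM in matPlag1KO 2c embryos. Here 8 of 11 matPlag1KO embryos lay below every WT embryo, and the log2 fold change was -1.21 ± 0.268 (edgeR adjusted p = 0.00334). Prpf38a (chr4:108237472-108251941, minus strand), needed for the step from the B complex towards the active spliceosome, had 103, 209.6 and 300.3 CPM in WT and 45.1, 69.2 and 241 CPM in matPlag1KO. The highest matPlag1KO embryo, at 241 CPM, stood above the WT median, and 8 lay below every WT embryo, for a log2 fold change of -1.31 ± 0.370 (edgeR adjusted p = 0.0251). The 2c difference of each of Sf3b1, Prpf38a, Srsf7 and Srsf10 was lower than that in oocytes, with interaction terms from -1.74 to -1.33 (edgeR adjusted p from 0.00419 to 0.0350).

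Snrpd2 (chr7:19735187-19738075, plus strand) had 48.5, 125 and 214 CPM in WT and 8.16, 65.0 and 97.4 CPM in matPlag1KO 2c embryos. The log2 fold change was -1.21 ± 0.377 (edgeR adjusted p = 0.0429), and 7 of 11 WT embryos lay above every matPlag1KO embryo. All 7 Sm core genes had a negative log2 fold change at 2c, from -1.42 to -0.15, against 42.2% of all genes. Of the 7, Snrpd2 alone was called, where 2.62% of all genes were called lower. Hnrnpa1 (chr15:103070828-103077129, plus strand) had 167, 363 and 617 CPM in WT and 120.3, 195 and 316 CPM in matPlag1KO. Its log2 fold change of -0.88 ± 0.261 (edgeR adjusted p = 0.0328) was the smallest of the 7. For each of the 7 genes the ranges of the genotypes overlapped.

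**Figure D3:**
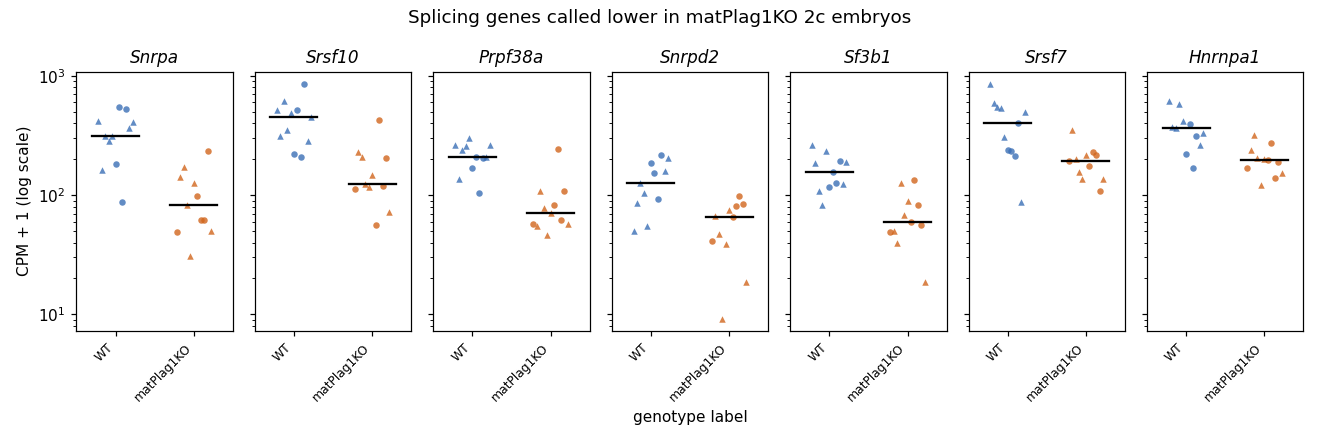
CPM + 1 (log axis) of the 7 splicing genes called lower at 2c, in 11 WT (blue) and 11 matPlag1KO (orange) 2c embryos. Circles are libA, triangles libB, and bars are medians. In every panel the matPlag1KO median lies below the WT median and the points overlap, as for Snrpa with medians of 314 and 81.6 CPM.

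Sf3b4, an SF3b subunit that contacts the pre-mRNA near the branch point, had the highest log2 fold change of the 59 at 2c, 1.19 ± 0.421 (edgeR adjusted p = 0.0763). It was called higher by DESeq2 (1.22, adjusted p = 0.0439), within libB alone (1.72, edgeR adjusted p = 0.0434) and in a fit of the 2c libraries alone (1.23, edgeR adjusted p = 0.0434). It had 5.46, 36.4 and 104 CPM in WT and 32.6, 106 and 201 CPM in matPlag1KO 2c embryos. At 8c the order of the medians was the reverse (469 CPM in WT and 198 CPM in matPlag1KO), and the 2c difference exceeded that at 8c by 2.07 ± 0.555 (edgeR adjusted p = 0.0262). Across the 59 members, the 2c difference was higher than that in oocytes for 1 gene (Cdc5l, by 5.22 ± 0.618, edgeR adjusted p = 1.23e-09) and lower for 5, where 1.62% and 1.68% of all genes were called. Against 8c it was higher for 1 (Sf3b4) and lower for 1 (Snrpa), where 1.17% and 1.13% of all genes were called. Both tests use the same 2c libraries.

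**Figure D4:**
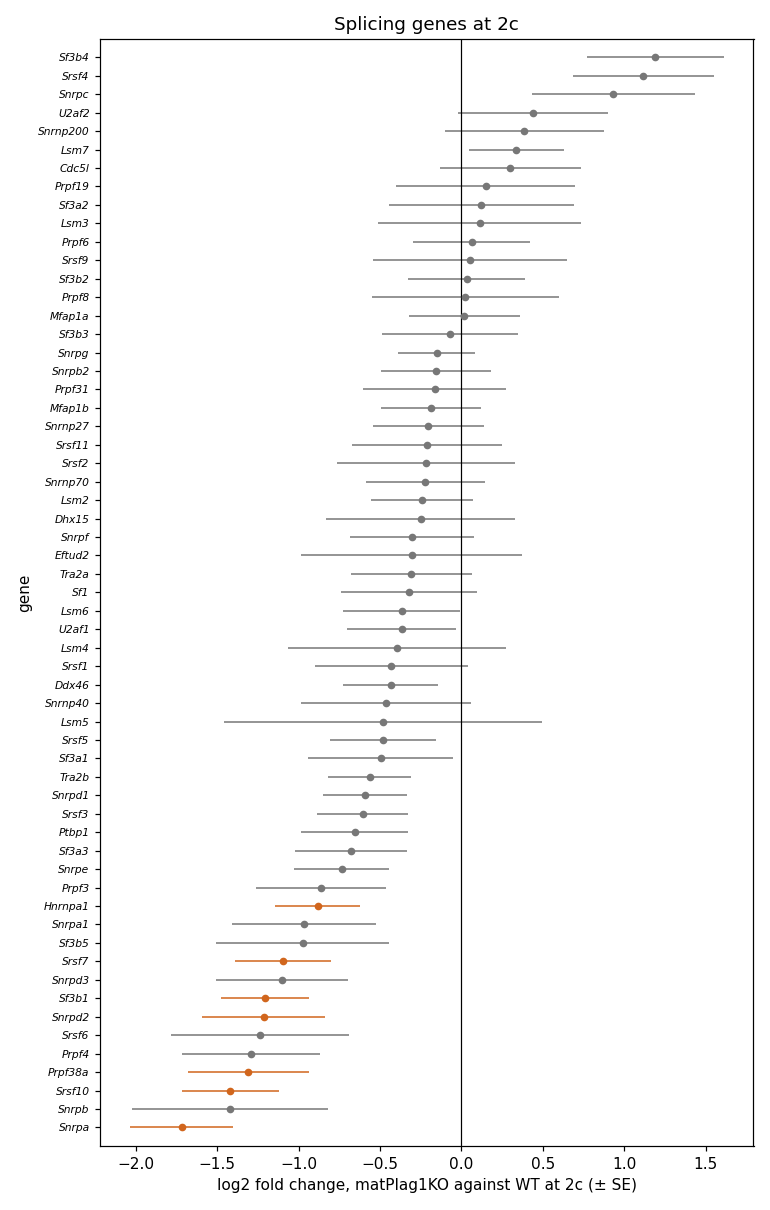
Log2 fold change (± SE) of matPlag1KO against WT at 2c for each of the 59 splicing genes, sorted. The 7 genes called lower are orange, the 52 others grey. Of the points, 44 lie left of 0, and the values run from -1.72 for Snrpa to 1.19 for Sf3b4.

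The calls at 2c depended on the pool, the scaling and the test. Of 8 pairs of 2c embryos in the same well of the 2 pools, 3 had deviations from the group means that correlated above 0.1. The p-values at 2c treat these libraries as independent. Within libA (4 WT and 5 matPlag1KO embryos) no member and no other gene was called by edgeR, although all 7 log2 fold changes were negative there, from -1.81 to -0.56, with unadjusted p-values under 0.05 for 4 of the 7. Within libB the 7 values ran from -1.85 to -1.08, and 1 member was called higher and 5 lower (0.989% and 2.32% of all genes). Snrpd2 (edgeR adjusted p = 0.0592) and Hnrnpa1 (edgeR adjusted p = 0.0697) lost their call there. With spike-in scaling Snrpa and Srsf10 alone kept their call (1.16% of all genes higher and 0.569% lower), and with all 90 libraries 3 members did, namely Snrpa, Sf3b1 and Srsf10 (2.77% and 1.86%). DESeq2 called 1 member higher and 8 lower (2.66% and 3.55% of all genes), adding Sf3b4 and Prpf4, a U4/U6 snRNP protein named after its value was seen (-1.30, DESeq2 adjusted p = 0.0166). The fit of the 2c libraries alone called 1 higher and 6 lower (3.13% and 2.82% of all genes), without Hnrnpa1 (edgeR adjusted p = 0.0677). The summed stage markers differed between the genotypes at 2c: the 10 oocyte markers summed to a median of 3574 CPM (1768 to 6856) in WT and 5628 CPM (2578 to 8898) in matPlag1KO, and the 10 markers of 8-cell embryos to 1420.0 CPM (517 to 2530) and 666 CPM (408 to 1714). Of the 10 markers of 2-cell embryos, 8 were tested and 2 had no count, and their sum was 216 CPM (83.3 to 1125) and 585 CPM (254 to 1696). Of these 10 markers of 2-cell embryos, 6 had a higher median in matPlag1KO, 0 a lower one and 4 a median of 0 in both. The single markers of the oocyte and 8-cell lists did not all go one way. Of the oocyte markers, 6 had a higher median in matPlag1KO, such as Bmp15 (350 against 881 CPM), and 4 a lower one, such as Zp3 (155 against 69.3 CPM). Of the 8-cell markers, Dppa5a (999 against 290 CPM) and Tfap2c (112 against 45.9 CPM) had a lower median in matPlag1KO, 5 had a higher one, such as Pou5f1 (118 against 208 CPM), and Krt8, Cldn4 and Nanog had a median of 0 in both. Their part in the splicing gene values was not tested.

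PLAG1 is known to bind a GC-rich site with a core of GAGGC or GGGGC, a short spacer and a G-rich cluster. The 250 bases before the annotated start of each gene were read from mm9 and searched on both strands for GAGGC or GGGGC followed by 6 to 8 bases of any kind and GGG. Such a match was present before 12 of 59 splicing genes (20.3%) and before 4802 of 16508 tested genes with sequence (29.1%), and the median GC content was 58.0% and 58.4%. The study itself scanned a longer window, also for a longer motif of its own that lay mostly within repetitive elements. The shares given here do not measure that motif. The consensus site that the study describes also holds a position K (G or T), which the search did not allow for. A match found here, as marked below, therefore need not fit that consensus. Of the 9 members called between the genotypes in oocytes or at 2c, Sf3b1, Srsf7 and Srsf10 had 1 match each and the other 6 had none. The windows of these 3 genes are shown with the match in capitals, beside that of Cdc5l, the gene with the largest difference in oocytes, in which no match was found. All are written 5′ to 3′ on the strand of the gene, ending at the base before its start. 
Srsf10, chr4:135411736-135411985, plus strand: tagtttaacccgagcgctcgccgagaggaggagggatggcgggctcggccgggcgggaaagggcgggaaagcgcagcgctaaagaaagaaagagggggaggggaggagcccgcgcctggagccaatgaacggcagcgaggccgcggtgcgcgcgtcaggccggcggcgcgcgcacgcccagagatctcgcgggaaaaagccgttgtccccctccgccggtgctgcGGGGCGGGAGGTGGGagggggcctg
Sf3b1, chr1:55084323-55084572, minus strand: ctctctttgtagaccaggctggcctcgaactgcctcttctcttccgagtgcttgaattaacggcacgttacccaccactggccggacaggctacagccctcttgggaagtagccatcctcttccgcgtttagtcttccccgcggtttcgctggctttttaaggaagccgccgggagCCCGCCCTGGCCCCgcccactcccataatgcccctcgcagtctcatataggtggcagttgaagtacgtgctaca
Srsf7, chr17:80606646-80606895, minus strand: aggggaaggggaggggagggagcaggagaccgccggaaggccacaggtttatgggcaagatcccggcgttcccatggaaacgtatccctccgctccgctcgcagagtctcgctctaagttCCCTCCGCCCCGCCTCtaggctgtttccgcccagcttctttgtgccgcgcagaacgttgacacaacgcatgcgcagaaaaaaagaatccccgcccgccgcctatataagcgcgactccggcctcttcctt
Cdc5l, chr17:45570657-45570906, minus strand: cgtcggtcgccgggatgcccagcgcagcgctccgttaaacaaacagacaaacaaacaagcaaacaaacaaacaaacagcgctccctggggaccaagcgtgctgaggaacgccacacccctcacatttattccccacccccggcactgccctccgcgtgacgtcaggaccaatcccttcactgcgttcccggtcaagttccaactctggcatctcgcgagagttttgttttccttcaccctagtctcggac

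The matches begin 25 bases before the start of Srsf10, 74 before that of Sf3b1 and 130 before that of Srsf7. The window of Mfap1b and that of Mfap1a, of which the first was called lower in oocytes, differed at 27 of 243 aligned bases, and neither held a match. A match describes the letters alone and is not a measured binding site.

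At 8c 0 of 59 members were called in either direction by edgeR, where 1.21% of all genes were called higher and 0.527% lower. DESeq2 called 0 as well, and 8 members had an unadjusted p under 0.05 in edgeR, against 14.3% of all genes. The log2 fold changes ran from -1.29 to 1.14 with a median of -0.10, against 0.00 over all genes. The 7 genes called at 2c had values from -0.25 to 0.08 at 8c, with SE from 0.233 to 0.333. In a fit of the 8c libraries alone 3 members were called, Eftud2 higher (1.18) and Sf3b4 (-0.83) and Cdc5l (-0.72) lower, all named after their values were seen, where 1.78% of all genes were called higher and 1.21% lower.

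The next comparisons followed the members through development, with each library scaled to its spike-in RNA, so that values stand for RNA per embryo. Between stages, more cells and more RNA per cell cannot be told apart on this scale. From MII to 2c in WT, 9 of 59 members were called higher and 35 lower, where 14.1% of all genes were called higher and 51.3% lower. The members' median log2 fold change was -1.64 against -1.46 over all genes. Both medians differed between the pools: they were -2.11 and -2.17 within libA and -0.67 and -0.67 within libB. On the TMM scale, which fixes the overall level, the split was 23 higher and 18 lower (27.5% and 23.1% of all genes). Differences between roles were not tested. Of the 10 U2 snRNP genes, 8 were called lower and 0 higher per spike-in RNA (7 lower and 2 higher with TMM), with a median of -3.26. Of the 12 SR and Tra2 genes, 6 were called higher and 2 lower per spike-in RNA (10 higher and 0 lower with TMM), with a median of 0.67. The 2 lower, named after their values were seen, were Srsf3 and Srsf4.

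Sf3a2, an SF3a subunit of the U2 snRNP, fell the most, from a mean of 74.0 ± 73.9 CPM (n = 16) in WT oocytes to 17.7 ± 15.0 CPM (n = 11) at 2c, with a log2 fold change of -4.25 ± 0.681 per spike-in RNA (edgeR adjusted p = 1.00e-07). Snrpd3, another Sm protein, had 299 ± 122 and 55.4 ± 52.9 CPM, with a log2 fold change of -3.95 ± 0.442. Prpf6, which bridges U5 and U4/U6 in the tri-snRNP, had 220.2 ± 108 and 51.1 ± 38.3 CPM, with a log2 fold change of -3.91 ± 0.467. The largest rises were in genes that were nearly absent from oocytes. Snrpd2 had counts in 8 of 16 WT oocytes (mean 2.73 ± 4.47 CPM) and in all 11 WT 2c embryos (129 ± 57.8 CPM), and its log2 fold change was 4.02 ± 0.477. Srsf1, the founding SR protein, had counts in 7 of 16 WT oocytes (1.26 ± 1.73 CPM) and in all 11 2c embryos (41.3 ± 19.4 CPM), and its log2 fold change was 3.19 ± 0.567. Lsm4, of the LSm ring on U6 snRNA, had no count in WT oocytes and 19 counts over the WT 2c embryos. That is 9.79-fold higher per spike-in RNA if 3 counts are allowed for the group at 0, without the counting error of the 19. The Sm ring thus had members that were called in opposite directions, with Snrpd2 and Snrpb higher and the other 5 lower (with TMM 2 were called higher and 3 lower).

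In matPlag1KO from MII to 2c, 5 members were called higher and 44 lower, where 13.5% of all genes were called higher and 50.3% lower, with a median of -1.90 against -1.42 over all genes (16 higher and 23 lower with TMM, where 29.1% and 19.3% of all genes were). These libraries also enter the genotype comparisons. Per spike-in RNA, Cdc5l had a log2 fold change of 3.06 ± 0.459 in matPlag1KO and of -1.56 ± 0.434 in WT, close to the median of all genes. With TMM the values were 4.90 (edgeR adjusted p = 5.17e-16) and -0.32 (edgeR adjusted p = 0.518). Srsf10 had -1.13 ± 0.310 in matPlag1KO and 0.74 ± 0.289 in WT per spike-in RNA, and the direction in matPlag1KO turned with TMM, where it was called higher in both (0.70 and 2.03). Snrpd2 was called higher in both on either scale, with 2.37 ± 0.480 in matPlag1KO and 4.02 ± 0.477 in WT per spike-in RNA.

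From 2c to 8c in WT, 46 of 59 members were called higher and 1 lower, where 31.9% of all genes were called higher and 16.2% lower. The median log2 fold change was 1.79 against 0.53 over all genes, and 50 of 59 members lay above the median of all genes. With TMM the split was 32 higher and 6 lower (21.0% and 28.9% of all genes). All 7 Sm genes, all 6 LSm genes and 9 of 10 U2 snRNP genes were called higher per spike-in RNA (6, 4 and 7 with TMM). Lsm5 rose the most: it had counts in 6 of 11 WT 2c embryos, 6 in all, with 0, 4.32 and 5.75 CPM as lowest, median and highest, and 50.2, 127 and 182 CPM in the 15 WT 8c embryos. Its log2 fold change was 5.999 ± 0.732 (edgeR adjusted p = 4.09e-11). Sf3b4 had 5.46, 36.4 and 104 CPM at 2c and 162, 469 and 752 CPM at 8c, without overlap, and a log2 fold change of 4.14 ± 0.601. Sf3a2 came back from 17.7 ± 15.0 to 109.8 ± 68.1 CPM, with a log2 fold change of 3.60 ± 0.668. Srsf10 was the sole member called lower, from 207, 453 and 850.0 CPM at 2c to 57.2, 94.2 and 163 CPM at 8c, and its log2 fold change was -1.16 ± 0.294 (edgeR adjusted p = 6.84e-04). In WT its level was therefore highest at 2c, since oocytes had 30.6, 118 and 170.0 CPM.

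In matPlag1KO from 2c to 8c, 46 members were called higher and 1 lower (35 and 5 with TMM, where 21.2% and 30.3% of all genes were), where 29.1% of all genes were called higher and 19.5% lower per spike-in RNA, with a median of 1.91 against 0.30 over all genes. The member called lower was Srsf4 (-1.99 ± 0.530), and Srsf10 had 0.17 ± 0.322 per spike-in RNA but was called lower with TMM (-0.72, edgeR adjusted p = 0.0339). Of the genes called at 2c, Snrpa had 1.93 ± 0.444 in matPlag1KO and 0.29 ± 0.397 in WT over this step per spike-in RNA, and with TMM it was called higher in matPlag1KO (1.05) and lower in WT (-0.64, edgeR adjusted p = 0.0496).

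**Figure D5:**
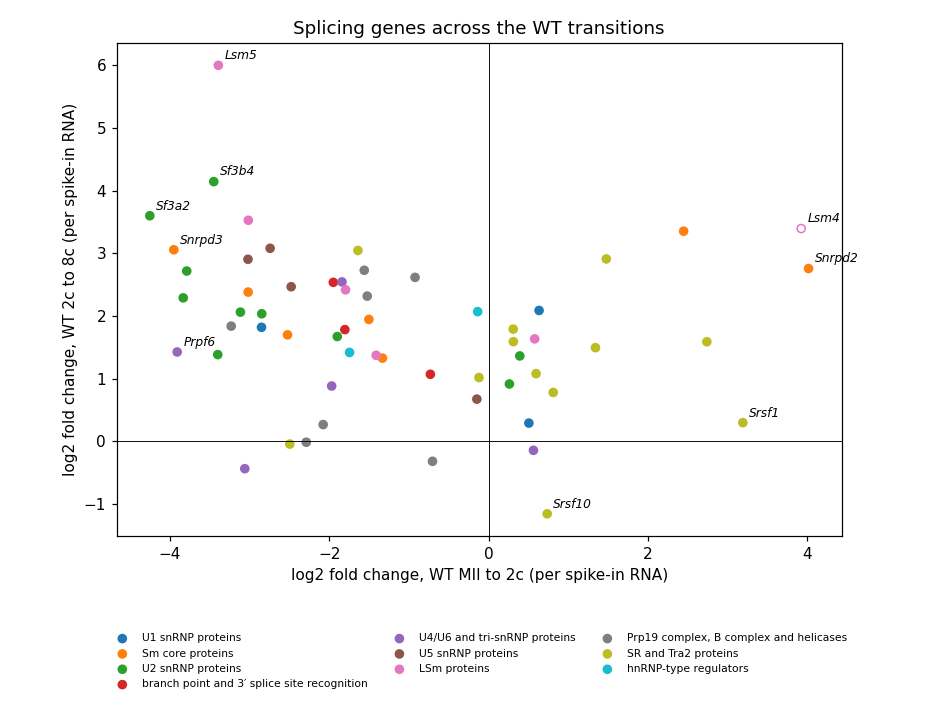
Log2 fold change per spike-in RNA of each splicing gene from MII to 2c (x axis) and from 2c to 8c (y axis) in WT, coloured by role. Most U2 snRNP genes (green) lie at the upper left, called lower and then higher, while the SR and Tra2 genes (olive) spread around 0 and to the right, and Srsf10 lies lowest, at -1.16 on the y axis. The open circle of Lsm4 has an x value fitted against a group without counts, and the numbers of genes called in each direction differ with TMM scaling (23 higher and 18 lower on the x axis).

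A further 104 genes of the pathway, all of them tested, were read in the same fits. At 2c 0 were called higher and 11 (10.6%) lower, against 2.30% and 2.62% of all genes. A negative log2 fold change was found for 75 (72.1%), against 42.2% of all genes, with a median of -0.45. The lowest were Prpf39, a U1 snRNP-linked factor (-2.42 ± 0.576, edgeR adjusted p = 0.00674), Hnrnpm, an hnRNP (-2.28 ± 0.473, edgeR adjusted p = 0.00185), and Snrnp25 of the minor spliceosome, which removes a rare class of introns (-1.82 ± 0.530, edgeR adjusted p = 0.0311). All 9 minor spliceosome genes and all 7 exon junction complex genes had negative values at 2c, of which 2 and 0 were called. In oocytes 0 were called higher and 1 (0.962%) lower, against 0.309% and 0.472% of all genes. At 8c 0 were called in either direction, against 1.21% of all genes higher and 0.527% lower. The gene lower in oocytes, named after its value was seen, was Crnkl1, which acts with the Prp19 complex at the catalytic step (-1.89 ± 0.275, edgeR adjusted p = 7.90e-07), and at 2c it had 0.01 ± 0.326. From MII to 2c in WT 14 of the 104 (13.5%) were called higher and 61 (58.7%) lower, against 14.1% and 51.3% of all genes. From 2c to 8c 60 (57.7%) were called higher and 3 (2.88%) lower, against 31.9% and 16.2% of all genes.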

How the data were processed

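The authors sequenced single oocytes and embryos from the 5′ ends of transcripts (STRT), with molecular identifiers and 92 ERCC spike-in RNAs, in 2 pools (libA and libB), aligned reads to mm9 and counted them over genes with HOMER. The deposited table holds these raw counts, without normalization, for 90 libraries, and every column was matched to a sample by its label. Libraries with a median under 1 CPM were dropped, as were genes that did not reach 1 CPM in 5 kept libraries. One edgeR 4.0.16 fit (R 4.3.3) with the quasi-likelihood test held the 6 groups, and a call is an adjusted p (Benjamini-Hochberg over all 16511 genes) under 0.05. Genotype comparisons and interactions used TMM factors, and stage comparisons used spike-in totals as library sizes, as the study scales between stages. SE are the log2 fold change divided by the root of its F statistic. No kept library was a copy of another (the chi-square of any 2 libraries of a group was at least 3.54 per degree of freedom).

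The members and all gene lists were chosen with earlier results of these data known. Values are given for members called between the genotypes or in an interaction, the 3 highest and 3 lowest called in each WT transition, the 3 most abundant per WT stage, and the Mfap1a and Mfap1b pair. Other members are named beside small counts after their values were seen. Deviations from the group means were correlated between oocytes in the same well of the 2 pools, which hold opposite genotypes: 12 of 14 pairs exceeded 0.1 (lowest -0.0562), and 14 of 14 when pool means were also removed (lowest 0.148), so the value with the well as a block is given beside the oocyte result. Promoter windows were read from the mm9 genome, the build of the table. Alternatives covered the test (DESeq2 1.42.0), the scaling, the filters, the pool, the groups in the fit and the well. The fits were tested on simulated data. Counts of a few per library limit the low members, and the floor of 3 counts covers only the counting error of the group at 0.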

Additional observations from a re-analysis of the deposited data

Results flagged for a closer look

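The genotype difference of 7 members changed between stages by an interaction term in edgeR. Of all genes, 1.62% were called higher and 1.68% lower against oocytes, and 1.17% and 1.13% against 8c. The calls against 8c, 1.69% of the members in each direction, were near the share of all genes. Against oocytes, the 2c difference was higher for Cdc5l by 5.22 (log2, edgeR adjusted p = 1.23e-09) and lower for Snrpa by -1.78 (edgeR adjusted p = 0.00572), for Prpf38a by -1.74 (edgeR adjusted p = 0.0240), for Sf3b1 by -1.52 (edgeR adjusted p = 0.00419), for Srsf7 by -1.34 (edgeR adjusted p = 0.0328) and for Srsf10 by -1.33 (edgeR adjusted p = 0.0350). Against 8c, it was lower for Snrpa by -1.69 (edgeR adjusted p = 0.0164) and higher for Sf3b4 by 2.07 (edgeR adjusted p = 0.0262). For Cdc5l the WT oocytes ranged from 5.81 to 923 CPM, and within libA alone the interaction was 2.65 (edgeR adjusted p = 0.0961).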

How the results depend on the processing

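Between the genotypes, 62 of 83 alternative values of the 9 called members kept their call and 21 lost it, none changing sign, and Cdc5l in oocytes kept its call in 10 of 10 settings (-5.71 to -3.20). Members called in oocytes numbered 2, and 1 with spike-in scaling, 1 in libA, 6 in libB (2.42% of all genes higher and 0.633% lower) and 10 with a replicate block for the well plus a pool term (4.92% and 1.18%). The well block could not be used for embryos, where 2 of 8 pairs at 2c and 0 of 12 at 8c held opposite genotypes. In embryos the correlation exceeded 0.1 for 3 of 8 pairs at 2c (median 0.0691) and for 7 of 12 at 8c (median 0.138). An effect of the well can therefore not be told apart from genotype there, and the embryo p-values do not account for it. At 2c 7 were called, all lower, and 2 with spike-in scaling, 3 with all libraries and 0 in libA, where fewer libraries entered. DESeq2 called 9, libB alone 6 and the 2c libraries alone 7, each with Sf3b4 as 1 higher. At 8c the count was 0, and 3 in a fit of 8c libraries alone (1 higher and 2 lower). From 2c to 8c, libA gave 28 calls in WT and 29 in matPlag1KO, against 47 each. The 2c difference against oocytes gave 6 calls, and 1 with all libraries, 0 in libA and 3 with only the groups compared. Against 8c it gave 2 calls, and 7 with DESeq2, 0 with spike-in scaling, 1 with all libraries, 0 in libA, 1 in libB and 6 with only the groups compared. Of 72 alternative values of called interactions 25 lost the call, as did 1 of 80 values of the transitions. Spike-in scaling moved the median of all genes to 0.30 in oocytes and 0.28 at 2c, and in the transitions TMM moved it to -0.03 and -0.12 in WT and to 0.14 and -0.31 in matPlag1KO. The cause of these differences was not tested. Some counts in this section stand without the share of all genes called in the same fit. They show how the calls moved with the setting and are not results about the members. Depth limits members with a few counts per library, such as Lsm4 and Lsm5.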
